A study of Mus musculus with 15 samples.

Results

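Collagen genes encode the chains of the triple-helical proteins that make up most of the extracellular matrix of connective tissue. Their transcripts were followed in mouse bone marrow cells by RNA sequencing of polyadenylated RNA, as all rows of the deposited table whose identifier carries a symbol of the form Col, number, a, number. This rule found 44 genes among 56979 gene identifiers. They were grouped by textbook structure into 9 classes. These are 11 fibrillar collagens, 6 chains of basement membrane collagen IV, 2 multiplexins of basement membrane zones and 6 chains of beaded filament collagen VI. The rest are 9 FACIT collagens that decorate fibril surfaces, 3 network collagens, collagen VII of anchoring fibrils, 4 transmembrane collagens and 2 others. The libraries came from wild-type bone marrow in 5 groups of 3. BMSC, a cell type the labels give only by that abbreviation, formed the group Aged, treated with H2HO, and the group Aged_NZM, treated with H2HO and NZM. BMDM, which the labels do not spell out either and which is in wide use for bone marrow-derived macrophages, formed the groups Control (vehicle), LPS (lipopolysaccharide, a bacterial cell wall component that activates macrophages) and LPS_NZM (LPS and NZM). NZM was given after the pretreatment in both cell types, per the series' design text. The labels explain neither NZM nor H2HO and give no strain, age, dose, time or way of isolating the cells, and all 15 libraries share the wild-type genotype and the tissue. Libraries with NZM alone, or of BMSC not given H2HO, were not analysed here.

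Fibrillar collagens I, III and V assemble into the load-bearing fibrils of bone, skin and marrow stroma, and collagen IV forms the sheet-like network of basement membranes. Collagen VI forms beaded microfilaments around cells, and FACIT collagens bind along the fibrils. In bone marrow these genes are known as products of stromal and bone-forming cells, and macrophages are known more for taking up and degrading collagen than for making it.

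Values are TPM, a share of each library's transcripts corrected for transcript length, which allows levels of different genes to be set beside each other within a library. Each library summed to 1000000 TPM within rounding, so the depth is unknown, and no counting interval is given. Between 21360 and 23398 identifiers were above 0 per library, and no library was an exact copy of another. The labels do not say whether the 3 libraries of a group are separate animals or cultures, so a p-value here reflects the spread among 3 libraries that may be technical repeats. The cell labels were checked against marker lists. The 12 macrophage markers summed to 23090 to 33570 TPM in the 9 BMDM libraries, where all 12 had a mean of at least 1 TPM in each group. They summed to 18.7 to 34.7 TPM in the 6 BMSC libraries, with 3 of the 12 at 0 in every library of Aged and 3 in every library of Aged_NZM, of which C1qb was at 0 in both groups. The 16 stromal markers, none of them a collagen, summed to 3194 to 3255 TPM in Aged, 6781 to 6885 TPM in Aged_NZM and 2726 to 3260 TPM in BMDM. By group means, 15 of 16 were at or above 1 TPM in the BMSC groups and 16 of 16 in the BMDM groups. The BMDM libraries held stromal transcripts as well as those of macrophages, and in such bulk samples fewer cells of a type and less RNA per cell cannot be told apart.

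Collagen transcripts were abundant in every group, and fibrillar collagens made up about the same large share of them throughout. Summed over the 44 genes they came to 1613 ± 76.5 TPM (SD, n = 3) in Aged and 4490 ± 55.9 TPM in Aged_NZM. In BMDM they came to 4420 ± 171 TPM in Control, 3572 ± 158 TPM in LPS and 3766 ± 72.6 TPM in LPS_NZM. Aged thus had the lowest sum, and Aged_NZM and Control lay closest together at the top. The sum in Aged_NZM was 2.78 ± 0.136 times that in Aged (SD carried over from both groups), and the sum in Control was 2.74 ± 0.168 times that in Aged. Fibrillar collagens took 75.1% of the collagen TPM in Aged, 79.6% in Aged_NZM, 76.8% in Control, 76.5% in LPS and 76.1% in LPS_NZM. Collagen VI held 11.3% and 9.87% in the BMSC groups and 13.8%, 13.8% and 15.7% in Control, LPS and LPS_NZM. Collagen IV held 5.29% in Aged, more than the 3.86% in Aged_NZM and the 3.31%, 3.67% and 3.11% of the BMDM groups. The multiplexins were a larger part of the collagen TPM in BMDM (1.47%, 1.93% and 1.11%) than in BMSC (0.537% and 0.349%), and the network collagens a smaller part (0.764%, 0.759% and 0.533% against 2.71% and 1.58%). These sums and shares are descriptions and were not tested.

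**Figure D1:**
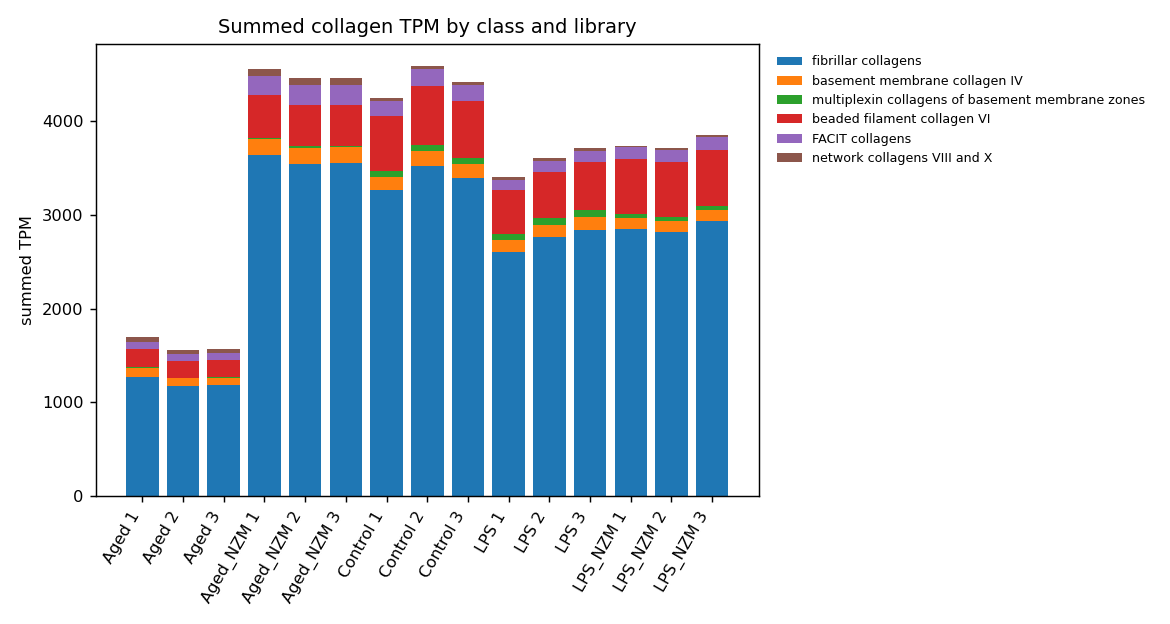
Summed collagen TPM (vertical axis, linear from 0) for each of the 15 libraries, stacked by class in 6 colours, with the remaining classes left out because they are too small to see. The 3 Aged bars, between 1563 and 1701 TPM over all collagens, are the lowest, and fibrillar collagens fill most of every bar.

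Of the 44 genes, 27 had a mean of at least 1 TPM in some group and 17 stayed below 1 TPM in every group's mean. Between 14 and 16 genes per group had a mean of at least 10 TPM. In Aged the order was Col1a2 (436 ± 18.7 TPM), Col1a1 (309 ± 18.3 TPM) and Col3a1 (295 ± 11 TPM), of which the last pair overlapped in their libraries. Next came Col5a2 (109.6 ± 4.69 TPM) and Col6a1 (98 ± 4.65 TPM). In Control it was Col1a1 (1303 ± 60.6 TPM) and Col1a2 (1239 ± 43.6 TPM), which overlapped, then Col5a2 (354 ± 3.87 TPM) and Col6a1 (280.3 ± 10.8 TPM), with Col3a1 only seventh at 207 ± 7.99 TPM. The plot of levels by library shows all 27 genes.

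**Figure D2:**
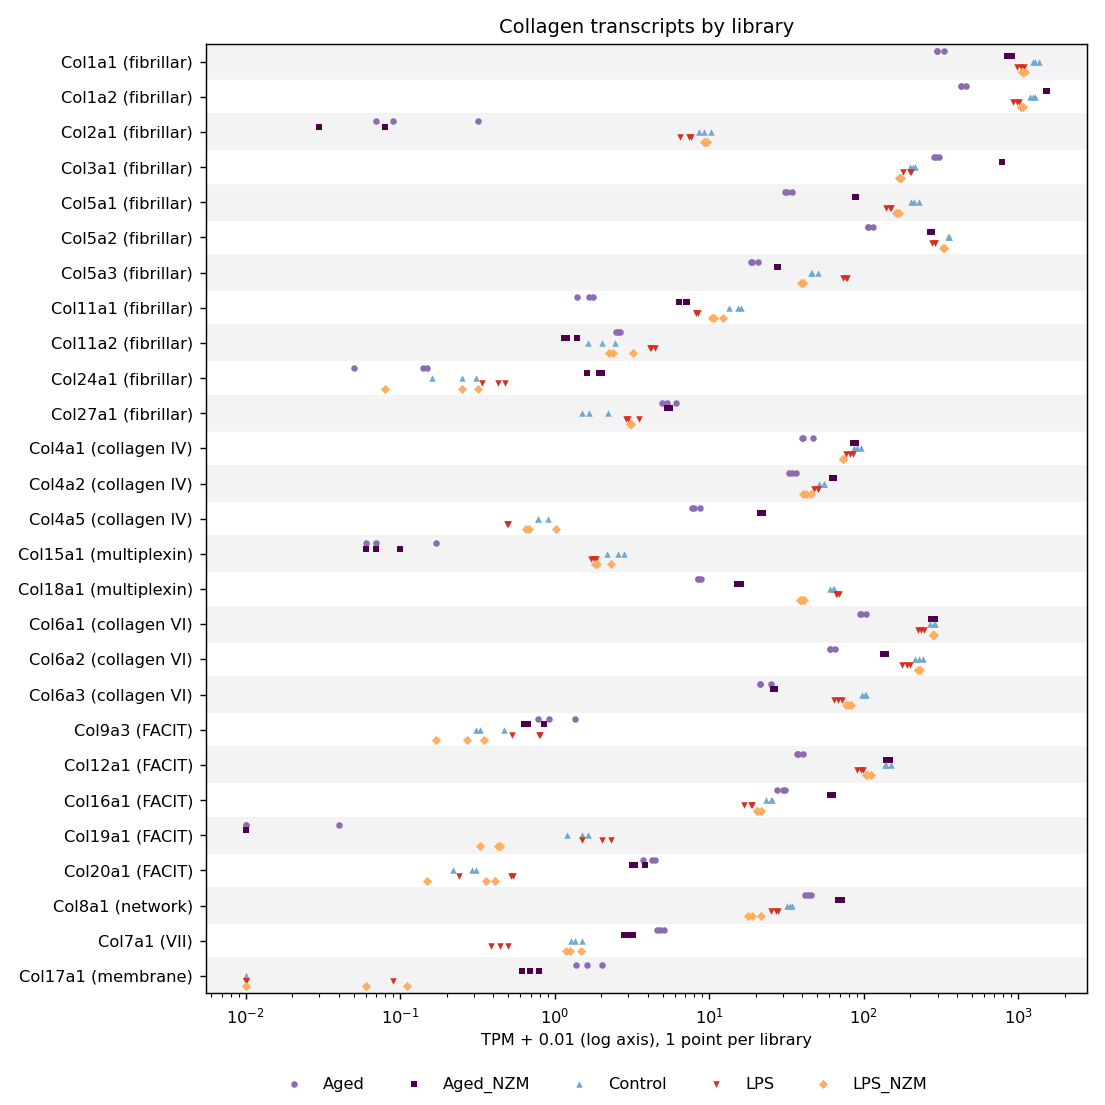
TPM of the 27 collagen genes that reached a mean of 1 TPM in some group (log axis with a small offset so that 0 can be drawn), with 1 point per library and 5 symbols for the 5 groups. Col1a1 and Col1a2 lie at the right, replicate points lie close together for the abundant genes, and Col2a1, Col15a1 and Col19a1 are separated by cell type.

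Aged_NZM and Aged differ by NZM, on top of the H2HO that both BMSC groups received. Most collagens that were expressed rose with NZM, across the fibrillar, basement membrane, beaded filament and FACIT classes. Of the 44 genes, 23 reached the filter for testing (at least 1 TPM in at least 3 of the 6 libraries). Of these, 18 were higher and 3 lower by limma's moderated test on log2(TPM + 1), at a Benjamini-Hochberg adjusted p under 0.05 over all genes tested, with 2 not called. All log2 changes are on that scale, which understates the change of low genes. Over all 13865 genes tested, 21.6% were called higher and 48.9% lower. The median log2 change was 1.03 over the 23 collagens and -0.18 over all genes tested. Setting the median tested gene of every library to the same value, here called centring, left the counts at 18 and 3, against 31.1% and 35.4% of all genes, with medians of 1.19 and -0.02. Col24a1 passed the filter only through Aged_NZM and Col17a1 only through Aged, so these genes had to differ in the direction they did, and the counts are descriptions. The libraries of the groups did not overlap for any of the called collagens. The share of all genes tested without overlap was not counted, so this is a description and no trait of the collagens.

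Fibrillar collagens rose in most of their genes, with 8 of 10 tested genes higher, 1 lower and 1 not called, and their summed TPM went from 1211 ± 55.8 to 3573 ± 50.3, 2.95 ± 0.142 times as much. Col1a1 (ENSMUSG00000001506), which encodes the more abundant chain of collagen I, read 329.8, 299.8 and 297 TPM in the 3 Aged libraries and 903, 839 and 847 TPM in the 3 Aged_NZM libraries. All 3 Aged_NZM values lay above all Aged values (log2 change 1.48, SE 0.0483, adjusted p = 1.15e-08). Col1a2 (ENSMUSG00000029661), the gene of its partner chain, read 458, 424 and 427 TPM in Aged and 1541, 1516 and 1519.8 TPM in Aged_NZM. It was the most abundant collagen in both BMSC groups and its estimate was above that of Col1a1 (log2 change 1.80, SE 0.0372, adjusted p = 9.17e-10). Col3a1 (ENSMUSG00000026043), the gene of the collagen of reticular fibres, read 307, 286 and 291 TPM and then 787, 779.9 and 781 TPM (log2 change 1.41, SE 0.0352, adjusted p = 2.36e-09). The 3 Aged_NZM libraries were within a few TPM of each other and far above the Aged libraries.

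The stretches just upstream of Col1a2 and Col3a1 are shown because both genes rose with NZM in BMSC while Col3a1 was lower and Col1a2 higher in BMDM than in the mean of the BMSC groups. They are the 250 bases before the RefSeq start of each gene in the build GRCm38.p6, which is not the build of the deposited table. Col1a2 is at chr6:4505368-4505617, plus strand, and Col3a1 at chr1:45311288-45311537, plus strand. Both are written 5′ to 3′ on the gene's strand. Capitals mark each match, on either strand, to the CCAAT box, the TATA box in the form TATAAA, the GC box in the form GGGCGG and the Smad-type letters CAGACA.
Col1a2: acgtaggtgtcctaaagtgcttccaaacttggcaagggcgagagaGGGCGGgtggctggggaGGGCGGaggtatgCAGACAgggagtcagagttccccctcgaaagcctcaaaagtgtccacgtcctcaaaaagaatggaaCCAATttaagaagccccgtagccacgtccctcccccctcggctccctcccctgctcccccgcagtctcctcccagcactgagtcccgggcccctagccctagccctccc
Col3a1: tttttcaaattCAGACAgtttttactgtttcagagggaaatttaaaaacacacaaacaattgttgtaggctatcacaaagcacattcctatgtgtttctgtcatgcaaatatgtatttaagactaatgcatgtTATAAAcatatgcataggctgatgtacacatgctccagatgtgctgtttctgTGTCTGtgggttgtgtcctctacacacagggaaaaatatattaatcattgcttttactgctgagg
The Col1a2 stretch holds a CCAAT, a pair of GGGCGG and a CAGACA, and the Col3a1 stretch holds a TATAAA and CAGACA on each strand. Such letters are common: of 32851 windows of the same length, 33.8% hold CCAAT or its reverse complement, 12.4% TATAAA, 32.7% GGGCGG and 17.1% CAGACA. Of the 38 windows found for 35 collagens the shares were 34.2%, 13.2%, 57.9% and 23.7%. A match describes the letters only.

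Collagen V, which nucleates collagen I fibrils and sets their width, rose in its 3 chains by unequal amounts. Col5a1 read 34.3, 30.7 and 32 TPM in Aged and 89.1, 87.6 and 87.6 TPM in Aged_NZM (log2 change 1.42, SE 0.0465, adjusted p = 1.18e-08). Col5a2 read 115, 107 and 107 TPM in Aged and 268, 275 and 268 TPM in Aged_NZM (log2 change 1.29, SE 0.0387, adjusted p = 7.16e-09). Col5a3 read 20.6, 18.8 and 19 TPM and 27.5, 27.8 and 27.7 TPM, the smallest change among the fibrillar genes called higher (log2 change 0.49, SE 0.0513, adjusted p = 2.09e-05). In all 3 genes the Aged_NZM libraries lay above the Aged libraries. Col11a1, a chain of collagen XI best known from cartilage fibrils, went from 1.75, 1.66 and 1.39 TPM to 6.4, 7.1 and 7.16 TPM, a large relative change at a low level (log2 change 1.60, SE 0.0982, adjusted p = 5.14e-07). Col11a2, its partner chain, moved the other way, with 2.55 ± 0.08 TPM in Aged and 1.24 ± 0.127 TPM in Aged_NZM (log2 change -0.67, SE 0.111, adjusted p = 0.000439). Col24a1, a minor fibrillar collagen known from bone, read 0.14, 0.04 and 0.13 TPM in Aged and 1.6, 2.0 and 1.92 TPM in Aged_NZM (log2 change 1.36, SE 0.142, adjusted p = 1.89e-05). Col27a1, a fibrillar collagen of cartilage, read 5.43 ± 0.557 and 5.47 ± 0.124 TPM, with no call (log2 change 0.01, SE 0.0867, adjusted p = 0.902). Col2a1, the main cartilage collagen, was at 0.15 ± 0.139 and 0.0533 ± 0.0289 TPM and was not tested.

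**Figure D3:**
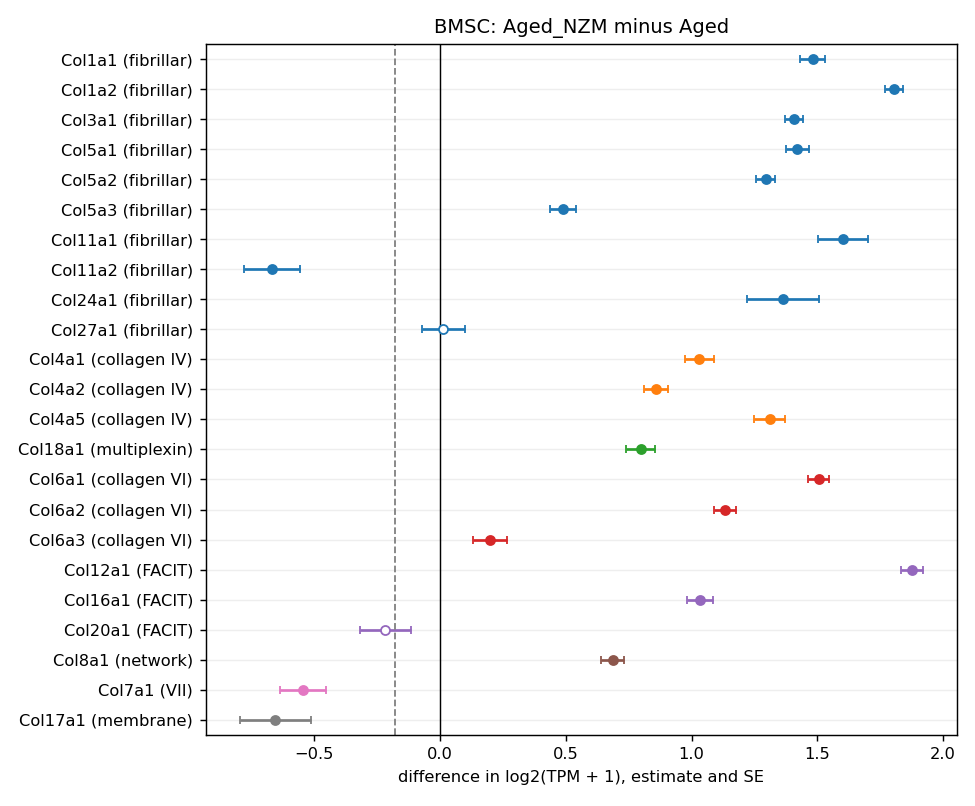
Difference in log2(TPM + 1) between Aged_NZM and Aged (horizontal axis, estimate with its SE as the bar) for the 23 collagens tested, coloured by class, with filled points for adjusted p under 0.05 and open points otherwise. The dashed line is the median of all genes tested, -0.18. Col12a1 (1.88) and Col1a2 (1.80) lie farthest right, Col6a3 (0.20) is the smallest called rise, and Col11a2, Col17a1 and Col7a1 lie left of 0.

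Basement membrane collagen IV rose as well, from a summed 85.4 ± 5.89 to 173 ± 2.17 TPM (2.03 ± 0.142 times), and all 3 of its tested chains were higher. Col4a1 (ENSMUSG00000031502), a chain present in nearly all basement membranes, read 46.7, 40.1 and 40.6 TPM in Aged and 88, 89.6 and 85.4 TPM in Aged_NZM (log2 change 1.03, SE 0.059, adjusted p = 3.31e-07). Col4a2, which joins it in the same trimer, read 36.5, 32.7 and 34.4 TPM and 63.6, 64 and 62.5 TPM (log2 change 0.86, SE 0.0475, adjusted p = 2.71e-07). Both genes had every Aged_NZM library above every Aged library. They lie head to head on opposite strands with their RefSeq starts close together, and reads near these starts are uncertain between them unless counting used the strand, which the sources used here do not state. Col4a5, a chain of specialised basement membranes such as that of the kidney, read 8.65, 7.99 and 7.67 TPM and 21.3, 21.1 and 22.3 TPM (log2 change 1.31, SE 0.0622, adjusted p = 1.01e-07). Its neighbour Col4a6, read from the opposite strand, stayed between 0 and 0.41 TPM in all 15 libraries and was not tested, as were Col4a3 and Col4a4, which stayed between 0.01 and 0.12 TPM. Col18a1, a multiplexin of basement membrane zones whose end fragment is endostatin, read 8.77, 8.51 and 8.39 TPM and 16.1, 15.7 and 15.1 TPM (log2 change 0.80, SE 0.0582, adjusted p = 1.7e-06). The other multiplexin gene, Col15a1, was at 0.09 ± 0.0608 and 0.0667 ± 0.0208 TPM in BMSC.

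The upstream stretches of Col4a5 (chrX:141475169-141475418, plus strand) and Col4a6 (chrX:141474077-141474326, minus strand) are shown because these neighbours on opposite strands differed so much in level in BMSC. They are again the 250 bases before each RefSeq start in GRCm38.p6, with the same motifs in capitals.
Col4a5: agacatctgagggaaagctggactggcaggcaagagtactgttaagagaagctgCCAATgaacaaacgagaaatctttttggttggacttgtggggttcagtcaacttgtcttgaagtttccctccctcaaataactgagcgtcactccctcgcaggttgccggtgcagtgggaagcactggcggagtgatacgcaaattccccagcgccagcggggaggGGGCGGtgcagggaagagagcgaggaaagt
Col4a6: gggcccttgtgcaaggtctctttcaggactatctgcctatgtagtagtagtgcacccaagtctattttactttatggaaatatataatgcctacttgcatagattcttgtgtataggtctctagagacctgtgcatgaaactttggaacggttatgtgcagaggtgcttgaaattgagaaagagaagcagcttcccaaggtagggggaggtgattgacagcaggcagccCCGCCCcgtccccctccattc
The Col4a5 stretch holds a CCAAT and a GGGCGG, and the Col4a6 stretch holds a GGGCGG on its other strand.

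Beaded filament collagen VI rose from a summed 183 ± 9.74 to 443 ± 8.62 TPM (2.42 ± 0.137 times), but its chains did so very unequally. Col6a1 read 103, 94.5 and 96.3 TPM in Aged and 287, 279 and 274 TPM in Aged_NZM (log2 change 1.50, SE 0.0416, adjusted p = 4.39e-09). Col6a2 read 65.3, 60.2 and 60.5 TPM and 139.9, 134 and 137 TPM (log2 change 1.13, SE 0.0429, adjusted p = 2.5e-08). Col6a3, whose chain joins those of Col6a1 and Col6a2 in the collagen VI monomer, read 25.2, 21.4 and 21.4 TPM and 26, 26.5 and 25.7 TPM (log2 change 0.20, SE 0.0674, adjusted p = 0.0242). The Aged_NZM libraries of Col6a3 lay above those of Aged by less than 1 TPM at the nearest pair. The call was lost without the filter on low values (adjusted p = 0.0666). It was also lost without Aged replicate 2 (adjusted p = 0.0828), Aged replicate 3 (adjusted p = 0.0849), Aged_NZM replicate 1 (adjusted p = 0.0516) or Aged_NZM replicate 2 (adjusted p = 0.066). Col6a4, Col6a5 and Col6a6 stayed at or below 0.4 TPM in every library.

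Among the FACIT collagens, Col12a1 had the largest change of all collagens tested. Col12a1, whose product links fibrils in tendon and muscle sheaths, read 40.2, 37.1 and 37.5 TPM in Aged and 138, 145 and 147 TPM in Aged_NZM (log2 change 1.88, SE 0.0441, adjusted p = 1.77e-09). Col16a1 read 31.1, 30.1 and 27.6 TPM and 63.3, 60.7 and 60.5 TPM (log2 change 1.03, SE 0.0518, adjusted p = 1.4e-07). In both genes the groups were well apart. Col20a1 read 4.15 ± 0.372 and 3.43 ± 0.352 TPM, with no call (log2 change -0.22, SE 0.101, adjusted p = 0.0811), and Col19a1 was at or near 0 in all 6 libraries (0.01 ± 0.0173 and 0 ± 0 TPM). Col8a1, a network collagen of vessel walls and the cornea, read 45.5, 41.6 and 43.5 TPM and 68.5, 70.8 and 72.5 TPM (log2 change 0.69, SE 0.0455, adjusted p = 8.93e-07). Those of Aged_NZM again lay above those of Aged. Col7a1, the anchoring fibril collagen, read 4.84 ± 0.262 TPM in Aged and 3.0 ± 0.211 TPM in Aged_NZM (log2 change -0.55, SE 0.0902, adjusted p = 0.000432). Col17a1, the transmembrane collagen of hemidesmosomes, read 1.67 ± 0.329 TPM in Aged and 0.687 ± 0.0902 TPM in Aged_NZM (log2 change -0.66, SE 0.142, adjusted p = 0.00236).

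Chains that share a trimer did not keep fixed proportions between groups. The ratio of Col1a2 to Col1a1 TPM was 1.39, 1.41 and 1.44 in the Aged libraries and 1.71, 1.81 and 1.79 in the Aged_NZM libraries, against 0.952 ± 0.0176, 0.939 ± 0.00482 and 0.977 ± 0.00973 in Control, LPS and LPS_NZM. It was above 1 in every BMSC library and below 1 in every BMDM library. The ratio of Col6a3 to Col6a1 was 0.244, 0.226 and 0.222 in Aged and 0.0906, 0.095 and 0.0939 in Aged_NZM, and 0.359 ± 0.00313, 0.289 ± 0.00448 and 0.283 ± 0.0103 in the BMDM groups. Col6a2 to Col6a1 went from 0.633 ± 0.00493 in Aged to 0.49 ± 0.0112 in Aged_NZM and stayed at 0.812 ± 0.0168, 0.801 ± 0.0145 and 0.806 ± 0.0166 in BMDM. Col4a2 to Col4a1 was 0.815 ± 0.0322 in Aged and 0.723 ± 0.00883 in Aged_NZM, and 0.596 ± 0.0184, 0.61 ± 0.0156 and 0.58 ± 0.0331 in BMDM. Col5a2 to Col5a1 was 3.39 ± 0.08 and 3.07 ± 0.0644 in BMSC and 1.66 ± 0.092, 1.96 ± 0.0441 and 2.01 ± 0.0414 in BMDM. Col3a1 to Col1a1, chains of different collagens, was 0.956 ± 0.0247 and 0.908 ± 0.0317 in BMSC and 0.159 ± 0.00166, 0.187 ± 0.00469 and 0.158 ± 0.0026 in BMDM, where collagen III transcripts were a far smaller part. Ratios within a library do not depend on the total to which TPM are scaled, and they were not tested.

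**Figure D4:**
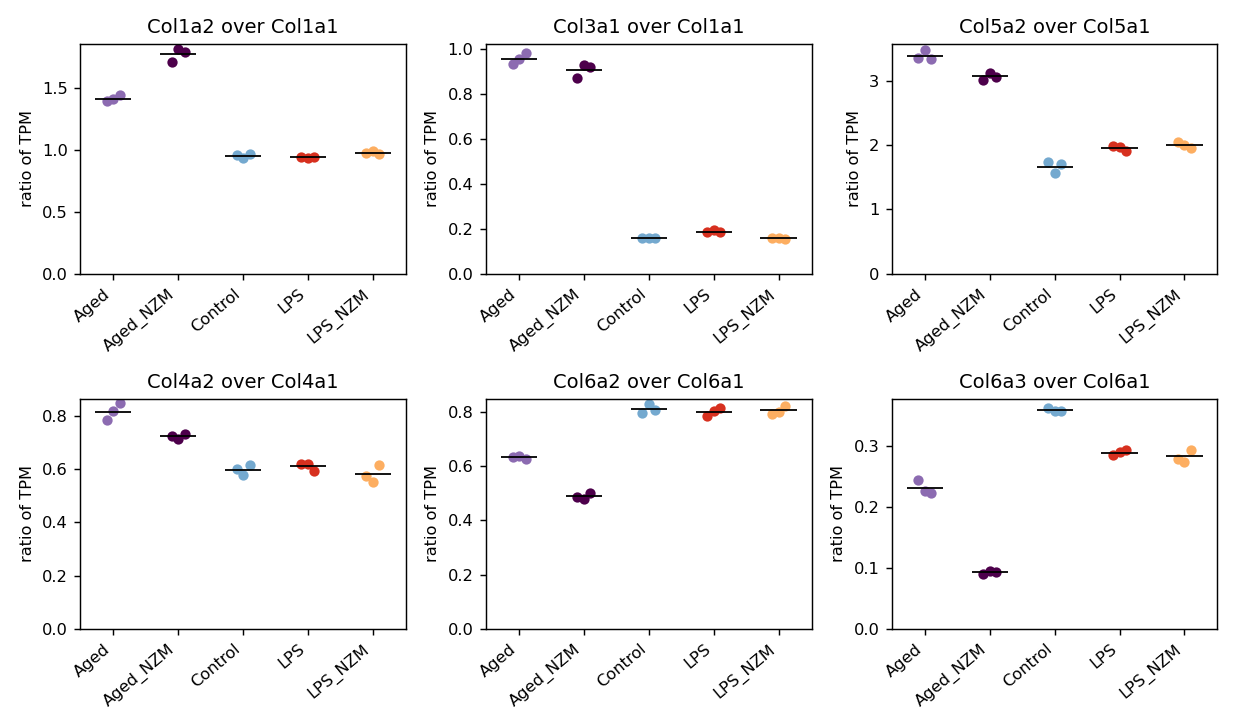
Ratio of TPM of paired collagen genes (vertical axes, linear from 0) in each library, with 1 point per library and a line at the group mean. Col1a2 over Col1a1 and Col3a1 over Col1a1 are higher in both BMSC groups than in the 3 BMDM groups, and Col6a3 over Col6a1 is lowest in Aged_NZM (0.0932 ± 0.00227).

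Genes that make, process and bind collagen were counted beside the collagens in BMSC. Of the list for collagen synthesis and folding, 14 of 18 tested genes were higher and 1 lower, with a median log2 change of 0.44, against 21.6% and 48.9% of all genes. Serpinh1, the collagen chaperone HSP47, read 358 ± 3.44 TPM in Aged and 649.7 ± 25.8 TPM in Aged_NZM (log2 change 0.86, SE 0.0362, adjusted p = 4.67e-08). The prolyl hydroxylase subunit genes P4ha1 and P4ha2 rose by 0.64 and 0.56 on the log2 scale, and Plod2, a lysyl hydroxylase of the chain ends, by 0.42. The largest changes of the list were in the endoplasmic reticulum transcription factor gene Creb3l1 (6.18 ± 0.33 to 25.3 ± 0.374 TPM, log2 change 1.87) and the prolyl hydroxylase subunit gene P4ha3 (5.77 ± 0.604 to 18.8 ± 0.711 TPM, log2 change 1.55). Colgalt1, which adds sugars to collagen and is named after its value was seen, was the gene called lower (-0.20), a call that was not kept after centring (-0.04, adjusted p = 0.305).

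In procollagen processing and crosslinking, 8 of 11 tested genes were higher and 1 lower. This count, and those of receptors and degradation genes below, stand beside the same 21.6% and 48.9% of all genes. Lox, the lysyl oxidase that crosslinks fibrils, read 556 ± 25.8 TPM in Aged and 1689 ± 28.6 TPM in Aged_NZM (log2 change 1.60, SE 0.0393, adjusted p = 2.11e-09) and was above Col1a2 in both groups. Adamts2, which removes the amino-terminal propeptide, rose from 11.6 ± 0.987 to 40.5 ± 1.84 TPM (log2 change 1.73). Bmp1, which removes the carboxy-terminal propeptide, rose from 65 ± 1.05 to 139.9 ± 4.35 TPM (1.09), and Pcolce, which enhances that cleavage, from 253 ± 5.84 to 660.1 ± 21.2 TPM (1.38). The gene called lower, named after its value was seen, was Pcolce2 (1.95 ± 0.119 to 0.573 ± 0.2 TPM, log2 change -0.92). Pcolce2 passed the filter through the Aged libraries alone, so it had to be lower. Among collagen receptors 5 of 7 were higher and 1 lower. Itga11, a collagen-binding integrin subunit of fibroblasts, had the largest change of all the pathway genes, with 5.17 ± 0.596 TPM in Aged and 37 ± 0.3 TPM in Aged_NZM (log2 change 2.63, SE 0.0733, adjusted p = 4.72e-09). Itga1, another collagen-binding integrin subunit, rose by 1.91, Mrc2, a receptor for collagen uptake, by 0.88, and Ddr2, a receptor kinase for fibrillar collagen, by 0.39. Itga2, a further subunit named after its value was seen, fell by 1.48 on the log2 scale. Itga2 also passed the filter through the Aged libraries alone and had to be lower. Degradation genes were split, with 3 of 6 higher and 3 lower, the latter near the share of all genes. The collagenase gene Mmp14 (90.1 ± 2.14 to 135 ± 3.41 TPM, log2 change 0.58) and the gelatinase gene Mmp2 (1.99 ± 0.197 to 4.86 ± 0.249 TPM, 0.97) were higher. The collagenase gene Mmp13 (3.96 ± 0.531 to 1.17 ± 0.3 TPM, -1.20) and the cathepsin gene Ctsk (2.16 ± 0.318 to 0.817 ± 0.299 TPM, -0.81) were lower.

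Markers of other cell types moved with these groups too. Of the 16 stromal markers 15 were tested in BMSC, with a median log2 change of 1.03. With NZM 13 were higher and 1 lower, against 21.6% and 48.9% of all genes. Summed collagen TPM per stromal marker TPM was 0.487 to 0.523 in Aged and 0.647 to 0.67 in Aged_NZM, or 0.662 to 0.722 and 1.05 to 1.11 without Sparc among the markers, an alternative chosen after the data were seen. Cxcl12 (128 ± 1.25 to 679 ± 5.13 TPM) and Pdgfrb (25.4 ± 1.27 to 98.6 ± 1.93 TPM) had the largest rises, and Twist2 fell (23.6 ± 0.0907 to 7.56 ± 1.06 TPM). These 3 are named after their values were seen. The 6 smooth muscle markers summed to 349 to 368 TPM in Aged and 1393 to 1466 TPM in Aged_NZM. All 3 that were tested rose (Acta2, Cnn1 and Tagln, by 1.93, 2.03 and 2.29 on the log2 scale), while Myh11, a defining marker of mature smooth muscle, was at 0.22 ± 0.0794 and 0.13 ± 0.0265 TPM. The 7 osteoblast markers summed to 59.5 to 65.3 and 70.3 to 76.3 TPM, with Bglap, Ibsp, Sp7 and Dmp1 at or near 0 in both BMSC groups. Most of each sum was Runx2 (59.8, 54.2 and 54.8 TPM in Aged). Of the 3 tested 1 was higher and 1 lower, against 21.6% and 48.9% of all genes. Named after their values were seen, Alpl rose (3.52, 3.79 and 4.76 to 12.3, 11.7 and 11.5 TPM) and Phex fell (1.87, 1.46 and 1.37 to 0.33, 0.25 and 0.33 TPM). Phex passed the filter through the Aged libraries alone, so it had to be lower. The 7 chondrocyte markers summed to 14.1 to 15.6 and 3.72 to 4.13 TPM, with Acan at 0.21 ± 0.0854 and 0.08 ± 0.0265 TPM. Sox9 was almost all of the sum in Aged and most of it in Aged_NZM (2.82, 2.97 and 3.04 TPM). The 8 endothelial markers summed to 3.21 to 4.41 and 2.15 to 2.71 TPM, and the 5 adipocyte markers, with Adipoq at or near 0, to 18.5 to 22.9 and 20.4 to 22.7 TPM. The 7 neutrophil markers summed to 8.3 to 10.8 TPM and 23.4 to 25 TPM, most of it Camp, with Ngp and Elane at or near 0. The part of any of these in the rise of the collagens was not tested.

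In the BMDM libraries collagens were present at levels as high as in BMSC, in different proportions. The summed collagen TPM was 1.25 to 1.41 times the summed stromal marker TPM there, against 0.487 to 0.67 times in BMSC. Without Sparc in the marker sum, these ranges were 3.93 to 4.99 and 0.662 to 1.11. Most of that marker sum was Sparc, a collagen-binding matrix protein, at 2320 ± 49.8 TPM in Control. Dcn, a small proteoglycan of fibroblasts, stood at 90.9 ± 2.56 TPM against 1509 ± 18.1 TPM in Aged, and Pdgfra, a receptor of mesenchymal cells, at 6.01 ± 0.955 against 91.4 ± 3.82 TPM. Of the 16 stromal markers, 8 were higher and 7 lower in BMSC than in BMDM on both scales, with 1 not called. Named after their values were seen, Postn (185 ± 8.86 TPM in Control against 1.54 ± 0.298 TPM in Aged), Fbn1 (63.3 ± 3.24 against 23.1 ± 0.99 TPM), Eng (41.5 ± 1.48 against 2.97 ± 0.841 TPM) and Lepr (4.81 ± 0.395 against 0.603 ± 0.0551 TPM) stood the other way from Dcn and Pdgfra, as did Sparc (864 ± 32.2 TPM in Aged). Smooth muscle markers summed to 1087 to 1540 TPM in BMDM, and Ngp, a neutrophil granule gene, stood at 681 ± 23.8 TPM in Control. Most of the smooth muscle sum was Acta2 (1116, 1087 and 1108 TPM in Control) and Tagln (397, 346 and 362 TPM in Control). Myh11 (0.38, 0.52 and 0.4 TPM in Control), Des and Myocd were below 1 TPM in every BMDM library. Which cells of the BMDM libraries held the collagen transcripts was not tested. The mean of the BMSC groups was compared with that of the BMDM groups in a fit of all 15 libraries, in which the pretreatment goes with the cell type and cannot be told apart from it. Of 26 collagens tested 9 were higher in BMSC and 16 lower as deposited, against 57.7% and 36.3% of 16696 genes, and 9 and 17 after centring, against 48.7% and 44.3%. The median difference was -0.52 for the collagens and 0.38 for all genes tested, or -0.82 and 0.08 after centring. Of the 26, Col17a1, Col20a1 and Col24a1 passed the filter through BMSC libraries alone, and Col2a1, Col15a1 and Col19a1 through BMDM libraries alone. Col4a5 reached 1 TPM in 6 BMSC libraries and in 1 BMDM library, so it too passed only because of BMSC. These 6 and Col4a5 had to be higher in the cell type that held them. The counts and the order below therefore describe the collagens that passed and support nothing.

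Higher in BMSC on both scales were Col4a5 (0.89, 0.77 and 0.77 TPM in Control, log2 difference 3.09), Col20a1 (0.263 ± 0.0473 TPM in Control, 1.85), Col3a1 (1.33), Col7a1 (1.29), Col8a1 (1.08), Col17a1 (1.04), Col16a1 (0.99), Col27a1 (0.84) and Col24a1 (0.47). Lower in BMSC by the largest amounts were Col2a1 (-3.12) and Col18a1 (-2.16), followed by Col6a3 (-1.71), Col5a1 (-1.67), Col15a1 (-1.51), Col11a1 (-1.42), Col6a2 (-1.20), Col5a3 (-1.14), Col1a1 (-1.13) and Col19a1 (-1.09). Smaller differences in the same direction were those of Col5a2 (-0.90), Col6a1 (-0.67), Col12a1 (-0.60), Col11a2 (-0.45), Col4a1 (-0.41) and Col1a2 (-0.41). Col4a2 was not called as deposited (-0.05, adjusted p = 0.155) and was lower in BMSC after centring (-0.35, adjusted p = 1.91e-08). Col2a1 read 8.57, 9.26 and 10.2 TPM in Control and at most 0.31 TPM in any BMSC library. The cartilage proteoglycan gene Acan was at 0 in all 9 BMDM libraries and Sox9, the transcription factor of cartilage, at 1.08 ± 0.0985 TPM in Control. Col18a1 read 60.5, 64.3 and 63.1 TPM in Control, above the 16.1 TPM of the highest BMSC library. Several of these averages hide the BMSC groups: Col1a2, Col6a1 and Col12a1 were at 1526, 279.9 and 143 TPM in Aged_NZM, close to or above the 1239, 280.3 and 143 TPM of Control, and only Aged was far below.

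The comparison of LPS with Control shows how the collagens in the BMDM libraries differed after the inflammatory stimulus. Their summed TPM was 0.808 ± 0.0476 times that of Control, with nearly the same factor for fibrillar collagens (0.806 ± 0.0467), collagen VI (0.808 ± 0.0552) and, less so, collagen IV (0.897 ± 0.059). The whole table shifted as well: the median log2 change over all 14486 genes tested was -0.48, so each log2 change in BMDM is given as deposited and then, after the word centred, with the medians set equal. Of 22 collagens tested 4 were higher and 16 lower as deposited, against 15.2% and 65.6% of all genes, with a median of -0.31. After centring 14 were higher and 1 lower, against 36.5% and 29.1%, with medians of 0.24 for the collagens and 0.07 for all genes. Col7a1 passed the filter with no LPS library at 1 TPM, and so had to be lower. The comparisons among the BMDM groups share libraries, so their values are given side by side and are not independent.

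Abundant collagens were lower with LPS in TPM and higher relative to the median gene. Col1a1 read 1248, 1368 and 1291 TPM in Control, 983, 1044 and 1083 TPM in LPS and 1070.2, 1055 and 1112 TPM in LPS_NZM. All LPS and LPS_NZM values lay below all Control values, and the log2 change with LPS was -0.33 (SE 0.0431, adjusted p = 4.8e-05) as deposited and 0.22 (adjusted p = 0.000968) after centring. Col1a2 read 1191, 1277 and 1249.9 TPM, 928, 976 and 1016 TPM and 1045, 1041 and 1076 TPM in the same order, with a log2 change of -0.35, centred 0.20. Col3a1 read 199, 215 and 207 TPM, 179, 200.3 and 203 TPM and 172, 168 and 173 TPM. The Control and LPS libraries overlapped as deposited (-0.09, adjusted p = 0.105), and the gene was higher after centring (0.46, adjusted p = 1.31e-05). Col5a2 read 350.4, 355 and 358 TPM, 278, 290.0 and 287 TPM and 331, 327 and 333 TPM, a change with LPS of -0.31, centred 0.23. Col5a1 read 203, 228 and 209.8 TPM, 139, 148 and 151 TPM and 162, 163 and 169 TPM, a change of -0.55, centred 0.00, the latter not called (adjusted p = 0.991). Col11a1 was lower on both scales (13.4, 16 and 15.4 TPM against 8.22, 8.17 and 8.4 TPM, -0.78, centred -0.23). Col2a1 went from 9.34 ± 0.818 to 7.16 ± 0.631 TPM (-0.34, centred 0.20, adjusted p = 0.0555 for the latter).

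A few collagens rose with LPS on both scales, against the direction of most genes in TPM. Col5a3, the collagen V chain with the narrowest tissue range, read 46.3, 50.9 and 45.8 TPM in Control, 72.9, 78.3 and 76.7 TPM in LPS and 39, 40.6 and 40.2 TPM in LPS_NZM. Its LPS libraries lay above all other BMDM libraries, with a log2 change of 0.66, centred 1.21 (SE 0.0485, adjusted p = 5.87e-07 as deposited). Col11a2 went from 2.03 ± 0.416 to 4.25 ± 0.164 TPM (log2 change 0.80, centred 1.35) and Col27a1 from 1.78 ± 0.378 to 3.11 ± 0.323 TPM (0.57, centred 1.12). Col18a1 read 60.5, 64.3 and 63.1 TPM in Control and 65.6, 67.1 and 69 TPM in LPS (0.10, centred 0.65). Its call as deposited (adjusted p = 0.0413) was lost without Control replicate 1 (adjusted p = 0.131), Control replicate 3 (0.0694), LPS replicate 2 (0.0827), LPS replicate 3 (0.132) or LPS_NZM replicate 1 (0.0554). Col19a1, a FACIT collagen, read 1.5, 1.63 and 1.2 TPM and 2.31, 2.01 and 1.49 TPM, overlapping as deposited (0.26, adjusted p = 0.118; 0.37, adjusted p = 0.047 without LPS replicate 3) and called higher after centring (0.81, adjusted p = 0.000516).

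In the other classes the sign with LPS again depended on the scale. Col4a1 read 86.3, 96.5 and 90.2 TPM in Control and 76.7, 81.2 and 85.3 TPM in LPS (-0.17, centred 0.38). Col4a2 read 51.6, 55.7 and 55.3 TPM and 47.5, 50.3 and 50.5 TPM (-0.13, centred 0.42). The call of Col4a2 as lower (adjusted p = 0.0412) was lost without Control replicate 2 (adjusted p = 0.117), Control replicate 3 (0.11), LPS replicate 1 (0.135), LPS replicate 2 (0.0592), LPS replicate 3 (0.053) or LPS_NZM replicate 1 (0.0536). Of collagen VI, the chains with the highest levels took opposite signs on the scales, and the third did not. Col6a1 read 268, 289 and 283 TPM and 225, 236 and 245 TPM (-0.25, centred 0.29). Col6a2 read 214, 240.2 and 229 TPM and 177, 189.7 and 199 TPM (-0.27, centred 0.28). Col6a3 read 97.4, 103 and 101 TPM and 64, 68.4 and 71.9 TPM (-0.56, centred -0.01, the latter with adjusted p = 0.833). Col12a1 read 138, 151 and 139 TPM and 90.9, 99.6 and 95.8 TPM (-0.57, centred -0.03, the latter with adjusted p = 0.6). Col16a1 read 25.5, 25.1 and 23.4 TPM and 16.9, 18.8 and 18.6 TPM (-0.43, centred 0.12, the latter with adjusted p = 0.0748). Col8a1 read 33.2, 34.4 and 31.6 TPM and 25.1, 27 and 27.9 TPM (-0.30, centred 0.24). All of these LPS values lay below the Control values in TPM, where 65.6% of all genes tested were called lower. The share of all genes without overlap was not counted in any BMDM comparison, so this is a description and no trait of the collagens. Col7a1 went from 1.37 ± 0.116 to 0.433 ± 0.0551 TPM (-0.72, centred -0.18, the latter with adjusted p = 0.21). Col15a1 went from 2.5 ± 0.315 to 1.78 ± 0.0551 TPM (-0.33, centred 0.21, the latter with adjusted p = 0.128). Col4a5 read 0.81 ± 0.0693 TPM in Control and 0.487 ± 0.00577 TPM in LPS and was not tested in BMDM, and Col24a1 read 0.23 ± 0.0755 and 0.407 ± 0.0709 TPM.

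NZM added to LPS moved collagens of BMDM both ways in TPM, and mostly down relative to the median gene. The summed collagen TPM was 1.05 ± 0.051 times that of LPS, with 1.05 ± 0.0506 for fibrillar collagens, 1.2 ± 0.0642 for collagen VI and 0.892 ± 0.0457 for collagen IV. Of 22 collagens tested 11 were higher and 8 lower as deposited, against 60.4% and 16.9% of 14486 genes, with medians of 0.11 and 0.40. After centring 0 were higher and 19 lower, against 29.8% and 35.3%, with medians of -0.35 and -0.06, so the collagens stood lower relative to the median gene. Col7a1 passed the filter with no LPS library, and Col19a1 with no LPS_NZM library, at 1 TPM, and so they had to be higher and lower.

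Lower with NZM on both scales were Col5a3, Col18a1, Col19a1, Col11a2, Col8a1, Col3a1, Col4a2 and Col4a1. Col5a3 read 39, 40.6 and 40.2 TPM, below every LPS and every Control library (-0.91, centred -1.37, SE 0.0485, adjusted p = 5.19e-08 as deposited). Col18a1 read 40, 41.3 and 38.6 TPM, also below all LPS and Control libraries (-0.74, centred -1.20, adjusted p = 6.57e-08 as deposited). Col19a1 read 0.32, 0.43 and 0.42 TPM (-1.07, centred -1.53), the largest change of a collagen in this comparison but at a level near 1 TPM. Col8a1 read 17.9, 19 and 21.5 TPM (-0.44, centred -0.90), and Col11a2 2.61 ± 0.526 TPM (-0.55, centred -1.01). Col3a1 changed by -0.18, centred -0.65, with all LPS_NZM libraries below the LPS libraries. Col4a1 read 73, 73.6 and 73.7 TPM (-0.14, centred -0.60) and Col4a2 42, 40.5 and 45.4 TPM (-0.21, centred -0.67). The call of Col4a1 (adjusted p = 0.0257) was lost without LPS replicate 2 (adjusted p = 0.0599), LPS replicate 3 (0.101), LPS_NZM replicate 1 (0.0627), LPS_NZM replicate 2 (0.0555) or LPS_NZM replicate 3 (0.0509).

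Collagen VI was higher in TPM and lower relative to the median gene. Col6a1 read 285, 281 and 282 TPM (0.26, centred -0.20), Col6a2 226, 225 and 232 TPM (0.27, centred -0.19) and Col6a3 79.6, 77 and 82.9 TPM (0.23, centred -0.24). The sign also turned for Col5a1 (0.18, centred -0.29), Col5a2 (0.21, centred -0.25), and Col1a2 (0.12, centred -0.35). It did so as well for Col12a1 (104, 104 and 111 TPM, 0.15, centred -0.31) and Col16a1 (20.3, 20.2 and 21.6 TPM, 0.18, centred -0.28). As deposited the calls of Col1a2, Col12a1 and Col16a1 were lost without LPS replicate 1 (adjusted p = 0.063, 0.058 and 0.0595) and without LPS_NZM replicate 3 (adjusted p = 0.0575, 0.0565 and 0.0548). Col1a1 was not called as deposited (0.06, adjusted p = 0.237) and was lower after centring (-0.41, adjusted p = 1.06e-05). Col11a1 read 10.4, 10.7 and 12.2 TPM and Col2a1 9.43 ± 0.233 TPM; both were higher as deposited (0.39 and 0.36) and not called after centring (-0.08 and -0.11). Col7a1 went from 0.433 ± 0.0551 to 1.3 ± 0.155 TPM (0.68, centred 0.21, not called after centring), and Col27a1 stood at 3.09 ± 0.0289 TPM (0.00, centred -0.47, called lower after centring only). Col15a1 read 2.0 ± 0.265 TPM (0.11, centred -0.36, called lower after centring only).

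**Figure D5:**
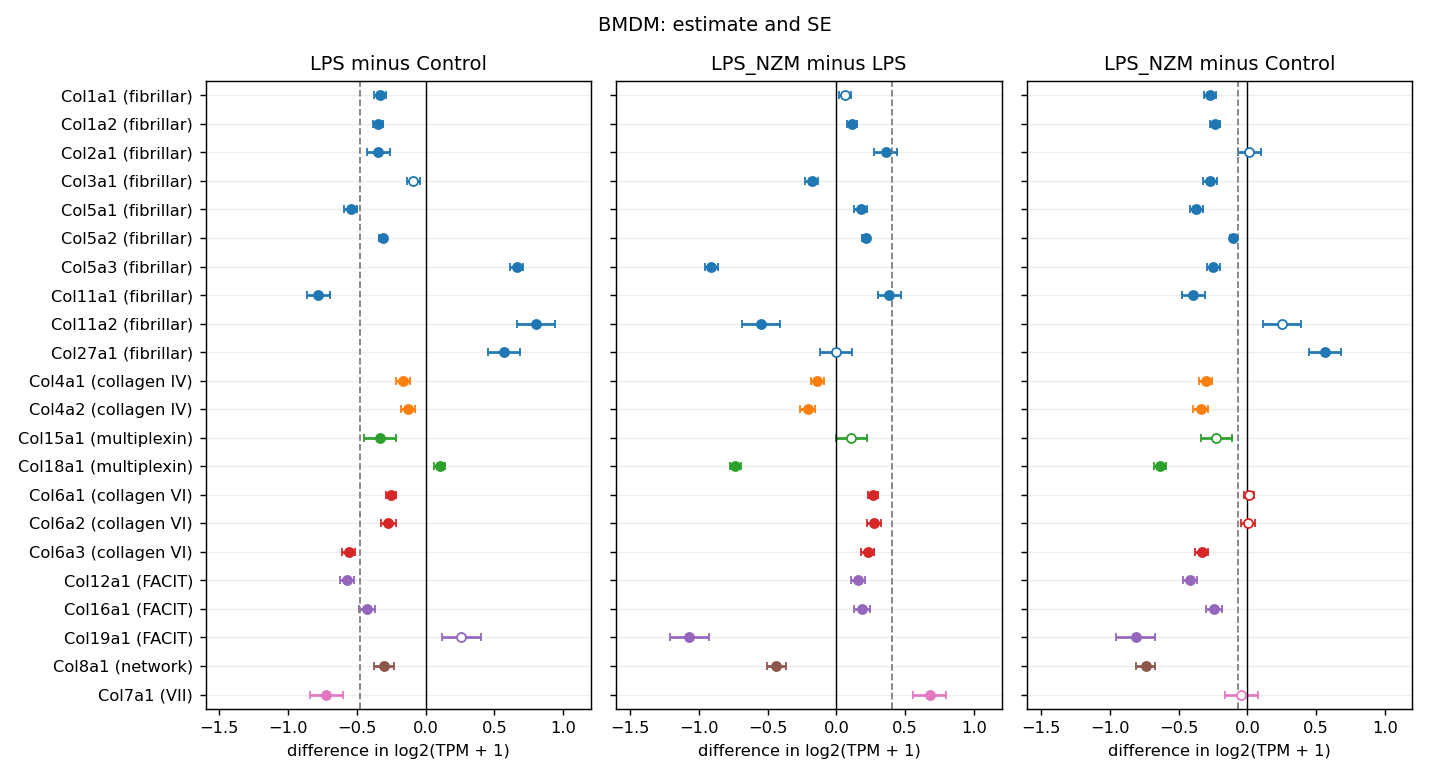
Differences in log2(TPM + 1) as deposited (horizontal axes, estimate with its SE as the bar) for the 22 collagens tested in BMDM, in 3 panels for LPS minus Control, LPS_NZM minus LPS and LPS_NZM minus Control, coloured by class, filled for adjusted p under 0.05. The dashed lines are the medians of all genes tested (-0.48, 0.40 and -0.07). Most collagens lie between 0 and the dashed line in the left panel, and many do so in the middle panel; the sign of points between these lines turns after centring. Col5a3 and Col11a2 lie right of both lines in the left panel and left of both in the middle one.

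With both agents given, most collagens tested were below their Control level. Of 22 collagens tested 1 was higher and 15 were lower as deposited, against 18.6% and 29.1% of 14486 genes, and 1 and 14 after centring, against 24.9% and 22%. The median log2 change was -0.26 for the collagens and -0.07 for all genes, or -0.18 and 0.01 after centring, and the counts on the scales differed by 1 collagen. The largest differences were those of Col19a1 (-0.81, centred -0.73), Col8a1 (-0.74, centred -0.66) and Col18a1 (-0.64, centred -0.55). Col19a1 passed the filter with no LPS_NZM library at 1 TPM, so it had to be lower, and its place in the count and in this order is a description. Of the fibrillar collagens, Col1a1 (-0.27, centred -0.19), Col1a2 (-0.23, centred -0.15), Col3a1 (-0.27, centred -0.19) and Col5a1 (-0.37, centred -0.29) were lower on both scales, as were Col5a3 and Col11a1. Basement membrane Col4a1 (-0.30, centred -0.22) and Col4a2 (-0.34, centred -0.26), beaded filament Col6a3 (-0.33, centred -0.25) and the FACIT collagens Col12a1 (-0.42, centred -0.34) and Col16a1 (-0.24, centred -0.16) were lower on both scales. Col5a2 was lower as deposited (-0.10) and not called after centring (-0.02). Col27a1, at 3.09 ± 0.0289 against 1.78 ± 0.378 TPM, was the collagen called higher (0.56, centred 0.65). Col6a1 and Col6a2 read 283 ± 2.07 and 228 ± 4.04 TPM against 280.3 ± 10.8 and 228 ± 13.1 TPM in Control, with no call on either scale. Their small differences (0.01, SE 0.0378, and 0.002, SE 0.0512) took the other sign without Control replicate 1.

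Of the genes that act on collagen, the collagenases Mmp13 and Mmp14 and the receptor Lair1 had large changes in BMDM. Mmp13, a secreted collagenase, stood at 86.6 ± 6.92 TPM in Control, 1501 ± 22.1 TPM in LPS and 246 ± 10.2 TPM in LPS_NZM, that is 4.10, centred 4.65 with LPS and -2.60, centred -3.07 with added NZM. Mmp14, a membrane-bound collagenase, stood at 259 ± 12, 1371 ± 55.8 and 304 ± 9.11 TPM (2.40, centred 2.95 with LPS, -2.17, centred -2.63 with added NZM). Mmp2 was at 155 ± 3.29, 139 ± 3.83 and 143 ± 3.93 TPM (-0.15, centred 0.39 with LPS). Ctsk, the main collagen-degrading cathepsin of osteoclasts, was at 161 ± 5.17, 157 ± 4.33 and 162 ± 4.38 TPM (-0.03, centred 0.52 with LPS, called only after centring). Lair1, an inhibitory collagen receptor of leukocytes, fell with LPS and rose above Control with NZM (82 ± 1.87, 25.1 ± 2.12 and 205 ± 7.44 TPM; -1.68, centred -1.13, then 2.99, centred 2.52). Counts for LPS against Control were 6 higher and 12 lower of 18 (centred 10 and 4) for synthesis and folding and 0 higher and 8 lower of 10 (centred 9 and 0) for processing and crosslinking. They were 0 higher and 5 lower of 7 (centred 4 and 1) for receptors and 3 higher and 4 lower of 8 (centred 5 and 2) for degradation. For LPS_NZM against LPS they were 11 higher and 4 lower of 18 (centred 2 and 11), 6 higher and 1 lower of 10 (centred 3 and 6), 3 higher and 1 lower of 7 (centred 1 and 5) and 3 higher and 3 lower of 8 (centred 2 and 6) in the same order. For LPS_NZM against Control they were 1 higher and 7 lower of 18 (centred 4 and 4), 4 higher and 3 lower of 10 (centred 4 and 1), 1 higher and 4 lower of 7 (centred 1 and 4) and 3 higher and 1 lower of 8 (centred 4 and 0). The shares of all genes given for these comparisons apply to these counts as well.

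The genes that make collagen had smaller changes. Serpinh1 stood at 579.6 ± 10.4, 494 ± 7.64 and 601 ± 0.578 TPM in Control, LPS and LPS_NZM (-0.23, centred 0.32 with LPS, 0.28, centred -0.18 with added NZM). P4ha1 (103 ± 7.3, 127 ± 1.03 and 93.6 ± 0.567 TPM) and P4ha2 (65.5 ± 2.32, 75.7 ± 4.2 and 59.1 ± 0.718 TPM) rose with LPS and fell with added NZM on both scales. Plod2 did so too (0.19 and -0.27 as deposited, 0.74 and -0.73 after centring). The largest called changes of synthesis genes were falls with LPS in Crtap (-0.97, centred -0.43) and Plod1 (-0.76, centred -0.22). With added NZM they were rises in Colgalt1 (1.03, centred 0.57) and Crtap (0.97, centred 0.50). Lox stood at 526 ± 25.2, 451 ± 9.57 and 657 ± 36.5 TPM (-0.22, centred 0.33 with LPS; 0.54, centred 0.07 with added NZM, the latter not called). Bmp1 stood at 97.6 ± 5.78, 97.1 ± 1.21 and 97.4 ± 2.37 TPM, not called as deposited in either comparison, and Pcolce at 149 ± 8.22, 119 ± 4.18 and 135 ± 4.75 TPM. In processing, Pcolce2 (0.85, centred 0.39) and Loxl4 (0.67, centred 0.21) had the largest changes with added NZM, and Pcolce2 (-0.40, centred 0.15) and Loxl3 (-0.40, centred 0.15) with LPS. Among receptors, the log2 change with LPS was -0.60 for Itga11, -0.53 for Mrc2 and -0.37 for Ddr2 as deposited, and -0.05, 0.02 and 0.17 centred. With added NZM it was -0.02, 0.27 and -0.08 as deposited, of which that of Mrc2 was called, and -0.48, -0.19 and -0.55 centred, all called. For LPS_NZM against Control, the largest 2 called changes of each list as deposited were as follows. Among receptors they were those of Lair1 (1.31, centred 1.40) and Itga11 (-0.62, centred -0.54), and among degradation genes those of Mmp13 (1.50, centred 1.58) and Mmp9 (0.46, centred 0.54). In processing they were those of Pcolce2 (0.45, centred 0.54) and Loxl4 (0.42, centred 0.50). In synthesis they were Plod1 (-0.41, centred -0.33), with Mia3 (-0.28, centred -0.20) and Sec23a (-0.28, centred -0.20) next.

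Markers of other cells also moved in BMDM, beside the collagens. The stromal markers summed to 3216 to 3260 TPM in Control, 2726 to 2762 TPM in LPS and 2863 to 2925 TPM in LPS_NZM, and the macrophage markers to 31330 to 33570, 23090 to 23240 and 27870 to 28290 TPM. Most of the macrophage sum was Lyz2 (24215, 21665 and 21980 TPM in Control). Of the 12 macrophage markers 3 were higher and 9 lower with LPS, against 15.2% and 65.6% of all genes. After centring 4 were higher and 6 lower, against 36.5% and 29.1%. Adgre1, Fcgr1 and Ptprc, named after their values were seen, rose with LPS. With added NZM 6 were higher and 4 lower (centred 5 and 7), against 60.4% and 16.9% (centred 29.8% and 35.3%). Collagen TPM per stromal marker TPM was 1.32 to 1.41 in Control, 1.25 to 1.34 in LPS and 1.27 to 1.32 in LPS_NZM, ranges that overlap. Without Sparc it was 4.46 to 4.99, 3.93 to 4.38 and 4.84 to 4.96, and the LPS libraries then lay below all other BMDM libraries. Ly6a, named after its value was seen, was then the largest marker in the sum. It read 405, 366 and 377 TPM in Control, 339, 324 and 329 TPM in LPS and 255, 255 and 261 TPM in LPS_NZM. The ratio without Ly6a was not computed. Neutrophil markers summed to 1487 to 1681, 2220 to 2443 and 1933 to 2321 TPM, and smooth muscle markers to 1456 to 1540, 1087 to 1130 and 1349 to 1450 TPM. Most of the smooth muscle sum was again Acta2 and Tagln. Of the 7 neutrophil markers 4 were higher and 2 lower with LPS (centred 5 and 2), beside the same shares of all genes. Mpo (76.9, 79 and 80 TPM in Control, 41, 44.3 and 50.4 TPM in LPS) and Elane, named after their values were seen, fell with LPS. With added NZM 3 were higher and 3 lower (centred 2 and 4). Osteoblast markers summed to 68.2 to 70.5, 38 to 43.4 and 64.2 to 64.8 TPM, with Bglap, Dmp1 and Phex at or near 0. Most of the sum was Alpl (28.6, 27.5 and 30.2 TPM in Control) and Runx2 (26.4, 27.5 and 27.4 TPM in Control). Sp7 (8.94, 9 and 8.76 TPM) and Ibsp (4.03, 4.74 and 4.06 TPM) were present in Control as well. Chondrocyte markers summed to 1.67 to 2.24, 0.96 to 1.39 and 2.02 to 2.77 TPM, endothelial markers to 48.6 to 51.4, 42.5 to 46.1 and 83.9 to 86.6 TPM, and adipocyte markers to 25 to 31, 28.2 to 36.5 and 36.7 to 41.9 TPM. Of the endothelial markers, named after their values were seen, Pecam1, found on endothelial cells and on leukocytes, stood at 13.6 ± 1.48, 11.5 ± 0.903 and 55.9 ± 1.82 TPM, and Kdr, a receptor of endothelial cells, at 5.44 ± 0.274, 10.1 ± 0.692 and 1.61 ± 0.166 TPM. Their part in the collagen values was not tested.

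The responses to NZM in BMSC and in LPS-treated BMDM were compared as a difference of differences in the fit of all 15 libraries, with the pretreatment, H2HO or LPS, going with the cell type. Most of the collagens tested had a more positive response in BMSC. Of 26 collagens tested 18 had a higher response in BMSC and 3 a lower one, against 17.2% and 54.8% of 16696 genes, and 23 and 1 after centring, against 39.9% and 28.7%. The median difference was 1.07 over the collagens and -0.45 over all genes, or 1.70 and 0.17 after centring. Differences were largest for Col12a1 (1.72, SE 0.0675, adjusted p = 1.77e-11), Col1a2 (1.69, SE 0.0539, adjusted p = 2.08e-12), Col24a1 (1.59), Col3a1 (1.59) and Col18a1 (1.53). Col24a1 reached 1 TPM in the Aged_NZM libraries alone and Col17a1 in the Aged libraries alone, so the direction of these differences was fixed by the filter. The same holds for Col19a1, which reached 1 TPM in Control and LPS libraries alone and was at most 0.03 TPM in BMSC. Col3a1 and Col18a1 rose with NZM in BMSC and fell with NZM in LPS-treated BMDM, as did Col5a3, Col8a1, Col4a1 and Col4a2, on both scales. Col6a3 was not called as deposited (-0.03, SE 0.0845, adjusted p = 0.778), but after centring its response was higher in BMSC (0.59, adjusted p = 6.27e-06). Lower in BMSC as deposited were Col7a1 (-1.23, centred -0.60), Col17a1 (-0.69, centred -0.07) and Col2a1 (-0.48, centred 0.14), of which Col7a1 kept its call after centring. Col11a2 fell with NZM in both cell types (-0.67 in BMSC and -0.55 in BMDM as deposited), and the difference was not called as deposited (-0.12, adjusted p = 0.521). After centring it was called higher in BMSC (0.50, adjusted p = 0.0114).

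The 17 collagens below 1 TPM in every group's mean were Col4a3, Col4a4 and Col4a6 of basement membranes, Col6a4, Col6a5 and Col6a6 of beaded filaments, and the FACIT collagens Col9a1, Col9a2, Col14a1 and Col22a1. They also were the network collagens Col8a2 and Col10a1, the transmembrane collagens Col13a1, Col23a1 and Col25a1, and Col26a1 and Col28a1. Of these Col14a1 came highest, with 0.32 to 1.2 TPM over the 15 libraries, and Col6a6 lowest, with 0 to 0.03 TPM. Col10a1, the collagen of hypertrophic cartilage, ranged from 0.03 to 0.6 TPM, and Col9a1 and Col9a2, which cover cartilage fibrils, were listed at 0 in 11 and 8 of 15 libraries. Their partner Col9a3 reached 1.01 ± 0.297 TPM in Aged and 0.707 ± 0.117 TPM in Aged_NZM without passing the filter. None of these genes was tested, and with unknown depth a listed 0 does not bound their level.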

How the data were processed

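Values are TPM per gene identifier as deposited by the authors in 1 table of 15 libraries. Reads came from polyadenylated RNA prepared with a strand-specific kit, per the labels' protocols. The build GRCm39 and the tools fastp, HISAT2, StringTie and RSEM are listed in the submitters' processing notes, and their versions, settings and use of strand are not given in the sources used here. Depth is unknown, since TPM keep no counts. Symbols came from a table of an older build, which matched 52072 of 56979 identifiers; 4907 had none.

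Tests used limma 3.58.1 in R 4.3.3 on log2(TPM + 1), with a mean-variance trend, genes of at least 1 TPM in at least 3 libraries of the fit, and Benjamini-Hochberg adjustment over all genes tested, with a call at an adjusted p under 0.05. The BMSC fit held 6 libraries and the BMDM fit 9, and a fit of 15 gave the comparison of cell types and of NZM responses. Sums, ratios and motif searches used Python 3.11.15 and pandas 2.3.3, and figures matplotlib 3.10.9. The limma script was tested on simulated data. Values in every library are given for 11 fixed chains of collagens I, III, IV, V, VI and XVIII, for any collagen with a group mean of at least 10 TPM, and for any called with a log2 change of at least 1 in a comparison within a cell type. Pathway genes are named from a fixed set and by the largest 2 called changes of a list. The members, the 9 classes and the lists for collagen synthesis and folding, processing and crosslinking, receptors and degradation, and for stromal, macrophage, endothelial, osteoblast, chondrocyte, smooth muscle, adipocyte and neutrophil markers were chosen with earlier results of these data known. Results were recomputed with a pseudocount of 0.1, no filter on low values, a filter of 5 TPM, median centring, TPM without the collagens in the total, no trend, a replicate block, only the groups compared, and each library left out. No sequence of the proteins was used here.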

Additional observations from a re-analysis of the deposited data

Results flagged for a closer look

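For 21 collagens the response to NZM differed between BMSC and LPS-treated BMDM by limma's test of the difference itself, at an adjusted p under 0.05 over 16696 genes. The values are differences of log2 changes, BMSC minus BMDM, as deposited. The pretreatment, H2HO or LPS, goes with the cell type, and the cell type and the pretreatment cannot be told apart. Among fibrillar collagens the difference was 1.69 for Col1a2, 1.588 for Col24a1, 1.587 for Col3a1, 1.422 for Col1a1, 1.397 for Col5a3, 1.244 for Col5a1, 1.217 for Col11a1 and 1.082 for Col5a2, and it was -0.478 for Col2a1. Among collagens of basement membranes it was 1.534 for Col18a1, 1.17 for Col4a1, 1.067 for Col4a2 and 1.063 for Col4a5. The collagen VI chains differed by 1.241 for Col6a1 and 0.859 for Col6a2, and the FACIT collagens by 1.722 for Col12a1, 1.056 for Col19a1 and 0.847 for Col16a1. Col8a1 differed by 1.124, Col7a1 by -1.225 and Col17a1 by -0.687. After centring, the values of Col17a1 (-0.07) and Col2a1 (0.14) were not called. Col2a1 and Col19a1 were not tested within BMSC, and Col4a5, Col17a1 and Col24a1 were not tested within BMDM. Col24a1 passed the filter through the Aged_NZM libraries alone and Col17a1 through the Aged libraries alone. Col19a1 passed through Control and LPS libraries alone, with at most 0.03 TPM in BMSC. Its fall with NZM in BMDM, and so the direction of its difference, was fixed by the filter. Groups of 3 libraries are too small for a search for single libraries that stand apart.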

How the results depend on the processing

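Centring each library on its median gene changed the BMDM comparisons most, because the median of all genes moved by -0.48 with LPS and by 0.40 with added NZM. For LPS against Control, the sign became positive for Col16a1 (0.12), Col1a1 (0.217), Col1a2 (0.198), Col3a1 (0.456), Col4a1 (0.382), Col4a2 (0.417), Col2a1 (0.204), Col5a1 (0.001), Col15a1 (0.215), Col5a2 (0.233), Col6a1 (0.295), Col6a2 (0.276) and Col8a1 (0.245), and 14 collagens were called higher and 1 lower. For LPS_NZM against LPS it became negative for Col11a1 (-0.079), Col12a1 (-0.309), Col16a1 (-0.279), Col1a1 (-0.405), Col1a2 (-0.349), Col2a1 (-0.107), Col15a1 (-0.358), Col5a1 (-0.289), Col5a2 (-0.252), Col6a1 (-0.2), Col6a2 (-0.192) and Col6a3 (-0.237), with 0 called higher and 19 lower; at the same threshold the deposited scale called 11 and 8. For the difference of NZM responses, the sign became positive for Col6a3 (0.594), Col2a1 (0.145), Col11a2 (0.504), Col15a1 (0.486) and Col20a1 (0.538), and 1 collagen was called lower. For LPS_NZM against Control it became positive for Col7a1 (0.038). Sparc taken out of the stromal markers, chosen after seeing the data, gave a mean ratio of collagen to stromal marker TPM of 0.682 in Aged, 1.07 in Aged_NZM, 4.78 in Control, 4.2 in LPS and 4.9 in LPS_NZM, in place of 0.5, 0.658, 1.36, 1.3 and 1.3. With a filter of 5 TPM fewer genes were tested, and the counts were 0 lower in Aged_NZM against Aged, 2 higher in LPS against Control, 0 higher in LPS_NZM against Control, 1 lower for the difference of responses and 5 higher in BMSC against BMDM. Leaving out 1 library at a time gave 16 to 18 collagens higher and 2 to 3 lower in Aged_NZM against Aged, 3 to 4 and 14 to 16 in LPS against Control, 8 to 11 and 7 to 8 in LPS_NZM against LPS, 1 and 15 in LPS_NZM against Control, 17 to 18 and 2 to 3 for the difference of responses, and 8 to 9 and 16 in BMSC against BMDM. Small differences changed sign: Col6a1 (-0.018) and Col6a2 (-0.041) in LPS_NZM against Control without Control replicate 1, Col6a2 (-0.012) without LPS_NZM replicate 3, and the difference of responses of Col6a3 without Aged replicate 1 (0.049) or LPS replicate 1 (0.015); left-out libraries gave -0.018 to 0.036 for Col6a1, -0.041 to 0.042 for Col6a2 and -0.068 to 0.049 for Col6a3 in these comparisons.

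Libraries with the same replicate number did not deviate together throughout (correlations of -0.07 to 0.21 over the pairs of groups). The highest, 0.16 for replicate 1 and 0.21 for replicate 3, were between Control and LPS_NZM, where replicates 1 and 3 crossed gave -0.17 and -0.18. The labels do not say what a number shares, and 3 libraries per group cannot settle whether libraries were paired. A fit with a replicate block changed 1 call, that of Col18a1 in LPS against Control (adjusted p = 0.0505), which left 3 collagens higher there. With no filter, the calls of Col6a3 in BMSC (adjusted p = 0.0666), of Col18a1 (0.053) and Col4a2 (0.0704) with LPS and of Col4a1 with added NZM (0.0518) were lost. With no trend, those of Col18a1 (0.0675) and Col4a2 (0.0641) with LPS, of Col4a1 (0.0505) and Col1a2 (0.0578) with added NZM and of Col5a2 in LPS_NZM against Control (0.0508) were lost. No named collagen changed direction with a pseudocount of 0.1, no filter, no trend, the collagens taken out of the total, or only the groups compared. With unknown depth, the genes near 1 TPM carry an error that the files do not show.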

Other observations

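Several collagen genes lie next to each other with no protein-coding gene between them in the RefSeq annotation of GRCm38.p6. Neighbours did not always share their level. Col3a1 and Col5a2 on chromosome 1 stood at 295 ± 11 and 109.6 ± 4.69 TPM in Aged (SD, n = 3) and at 207 ± 7.99 and 354 ± 3.87 TPM in Control, so that their order turned between the cell types. Col9a1 and Col19a1, also on chromosome 1, were both near 0 in BMSC, and Col19a1 alone reached 1.44 ± 0.221 TPM in Control. Col6a1 and Col6a2 on chromosome 10 stood at 279.9 ± 6.54 and 137 ± 3.23 TPM in Aged_NZM and at 280.3 ± 10.8 and 228 ± 13.1 TPM in Control. Col4a4 and Col4a3 on chromosome 1, and Col6a6, Col6a5 and Col6a4 on chromosome 9, stayed below 1 TPM in every group's mean.

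Sp7, an osteoblast transcription factor, is named after its values were seen: it stood at 8.9 ± 0.125 TPM in Control, 1.28 ± 0.0231 TPM in LPS and 8.02 ± 1.11 TPM in LPS_NZM, and at 0.0867 ± 0.125 and 0.0633 ± 0.0651 TPM in the BMSC groups.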
